A study of Rattus norvegicus with 16 samples.

Results

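The collagens and the enzymes that process them were examined in cultured rat levator ani satellite cells (LASCs) treated with a nonsteroidal androgen receptor agonist (NARA). The genes were chosen by name, with earlier results of these data known. In all 39 symbols were listed, 20 of them collagen chains and 19 of them enzymes or helpers of collagen assembly. A probe set, the group of short oligonucleotides that reports one transcript on the array, was counted for a gene when it was annotated with that symbol alone and its signal, averaged across the 13 arrays kept, reached 300. By this rule 35 of the 39 genes were measured, through 51 of the 20904 probe sets tested. Adamts2, Pcolce2 and Loxl4 had no probe set of their own symbol, and Col7a1 stayed below the minimum signal, with a highest mean of 134.6.

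The cells came from the levator ani, a perineal muscle of the rat that depends on androgens, and all were at passage 5. They received 10 nM NARA for 48 h (4 arrays), 0.2% DMSO as vehicle for 48 h (3 arrays kept), 10 nM NARA for 4 h (2 arrays kept) or 0.2% DMSO for 4 h (4 arrays). During treatment all groups were in growth medium whose serum was charcoal-stripped, a step that removes steroids. Nothing in the labels ties a replicate to its own culture or animal, although the titles speak of biological replicates. A p-value here is therefore measured against differences among the deposited samples, and these may be technical.

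Collagens are made as procollagen chains in the endoplasmic reticulum (ER), where prolyl and lysyl hydroxylases modify them before they fold into a helix. The chaperone Serpinh1 (HSP47) accompanies the folded procollagen, proteinases such as Bmp1 trim its ends outside the cell, and lysyl oxidases cross-link the assembled fibrils. In muscle, fibrillar and type VI collagens form much of the connective tissue around fibres, and type IV collagen is the main collagen of the basement membrane under which satellite cells lie.

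The signals are MAS5 values scaled by the authors, per the series' design text. Signals of the 13 arrays kept correlated at 0.930 to 0.956 with each other. Their median signal was 538.8 to 612.7. Of the arrays labelled NARA 4 h the authors had set aside replicates 1 and 4, and of those labelled vehicle 48 h the first. The NARA pair correlated at only 0.645 to 0.673 with the arrays kept. Of 8 liver markers, Alb, Ttr, Serpina1, Ahsg, Hp and Apoc3 were measured, while Apoa1 and Fgb averaged below the minimum. The signal summed over all 8 was 1202119 and 1445020 on the NARA pair, against 2974 to 5177 on the arrays kept. These 2 arrays therefore go against their labels. The vehicle 48 h array set aside correlated at 0.922 to 0.933 with the arrays kept. Of 9 satellite cell and myoblast markers 5 were measured. Their mean signals were 1275.0 for Cdh15, 1140.4 for Ncam1, 773.8 for Des, 545.6 for Itga7 and 324.7 for Vcam1. Pax7 and Myf5 had no probe set, and Myod1 averaged 83.9, below the minimum. Of 6 fibroblast markers (Col1a1 left aside) 5 were measured, Lum with a mean signal of 35996, Thy1 with 34875, Pdgfra with 7512.1, Dcn with 6169.3 and Fap with 4539.0. The sums below cover every listed marker with a probe set, so also Tcf21, Myod1 and Chrna1, which averaged below the minimum. The summed fibroblast marker signal was 58358 to 73815 with NARA at 48 h and 94508 to 108026 in vehicle at 48 h. The satellite cell and myoblast sum was 4707 to 5013 with NARA and 3829 to 4078 in vehicle. Neither sum overlapped between these groups on the arrays kept. On the vehicle 48 h array set aside, the satellite cell and myoblast sum was 4729, inside the NARA range. Its fibroblast sum was 89150, outside that range. Of the 5 fibroblast markers 3 were lower with NARA without overlap and 2 overlapped. Lum was at 19581 to 22779 with NARA and 40941 to 46151 in vehicle, while Thy1, the other bright one, overlapped, at 22130.0 to 38603 with NARA and 34546 to 42112 in vehicle. Dcn and Pdgfra were the others that were lower, and Fap overlapped. Of the 5 satellite cell and myoblast markers Ncam1 alone was higher without overlap, and the other 4 overlapped. At 4 h the fibroblast sum was 93157 to 98720 with NARA and 94040 to 105064 in vehicle, and the satellite cell and myoblast sum 4185 to 4344 with NARA and 3471 to 4632 in vehicle, both overlapping. Their part in the results was not tested, and in such bulk RNA fewer cells of a type and less RNA per cell cannot be told apart.

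After 48 h of NARA, 5 of the 35 genes differed from vehicle, 4 of them higher and 1 lower. The α1 chains of collagen XI and collagen VI (Col11a1 and Col6a1) were 2.05-fold and 1.89-fold higher, and the prolyl 3-hydroxylase P3h1 and the cross-linking enzyme Lox were higher by less. The related oxidase Loxl1 was lower. The test was limma with Benjamini-Hochberg adjustment over all 20904 probe sets at a threshold of 0.05, and each gene stands by its brightest probe set. Among all 11286 genes measured, 3.21% were called at 48 h, 1.71% higher and 1.5% lower, against 14.3% of the collagen genes and their enzymes. Of the 35 genes 28 had a positive and 7 a negative log2 change, with a median of 0.26. Over all genes the median was -0.005 and 49.2% were positive. An unadjusted p under 0.05 was found for 17 of the 35 and for 17.1% of all genes. The arrays of the 2 treatments did not overlap for 12 genes that were higher and 2 that were lower with NARA. Non-overlapping arrays occurred for 16.7% of all genes. The 35 genes were chosen with earlier results of these data known. Their shares, here and below, are therefore not independent of the data. The shares over all genes were also not matched to the 35 by signal level.

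**Figure D1:**
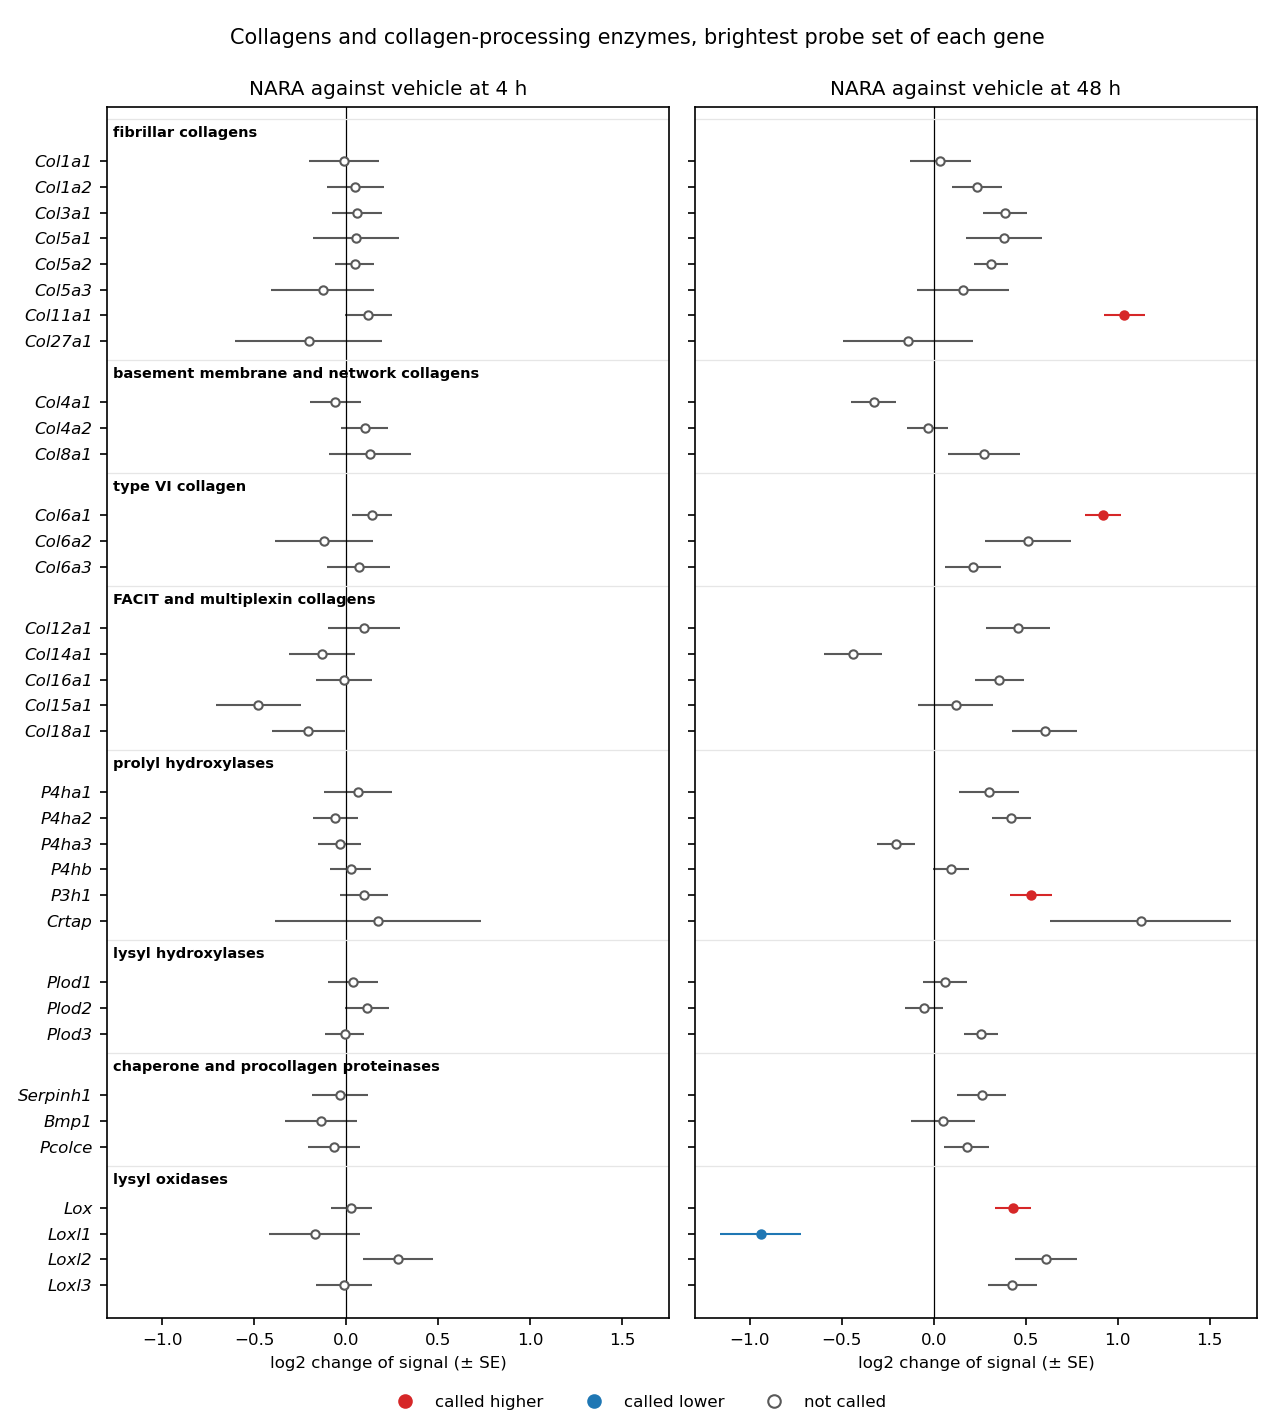
Each point is the log2 change of a gene's brightest probe set, NARA against vehicle, with its SE as a bar, at 4 h (left) and 48 h (right), grouped by class. At 48 h Col11a1, Col6a1, P3h1 and Lox are filled as called higher and Loxl1 as called lower; at 4 h no gene is called.

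Col6a1 encodes a chain of the beaded microfibrils that surround muscle fibres. Its signal was 33429.9, 34339, 38319 and 39365 on the 4 NARA 48 h arrays and 17804, 19906 and 19904 on the 3 vehicle 48 h arrays. Every NARA array lay above every vehicle array, and the log2 change was 0.92 (SE 0.0971, adjusted p = 0.000437), a 1.89-fold difference. Col11a1 encodes a chain of a minor fibrillar collagen that associates with other fibrils. Its signal was 26437, 28802, 23670.2 and 25493 with NARA at 48 h and 13833, 12240.1 and 12038 in vehicle at 48 h. The groups did not overlap, and the log2 change was 1.04 (SE 0.113, adjusted p = 0.000492), a 2.05-fold difference. The second probe set of Col11a1 gave 0.83 (adjusted p = 0.00824). Both calls were lost when all 3 arrays that the authors had set aside were put back, with log2 changes of 0.90 for Col6a1 and 1.04 for Col11a1 and an adjusted p of 1.00 for each. With only vehicle 48 h replicate 1 put back, both stayed called at the same log2 changes. The adjusted p was then 0.000107 for Col6a1 and 0.000102 for Col11a1 by limma. The NARA 4 h arrays enter the test at 48 h only through the estimate of the spread that all groups share.

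P3h1 forms, with Crtap and cyclophilin B, the ER complex that hydroxylates single prolines of procollagen chains. Its signal was 3647, 3664, 3598 and 4332 with NARA at 48 h, against 2502, 2404 and 2972 in vehicle at 48 h. The groups did not overlap, with a log2 change of 0.53 (SE 0.115, adjusted p = 0.0313). The P3h1 call was lost when vehicle 4 h replicate 4, vehicle 48 h replicate 2 or 3, or any 1 NARA 48 h array was left out, with an adjusted p of at most 0.131. Lox, the lysyl oxidase itself, had signals of 77109.9, 72677, 66649 and 65840.1 with NARA at 48 h and 54080.3, 50144 and 52461 in vehicle at 48 h. All 4 NARA arrays were above the 3 vehicle arrays, with a log2 change of 0.43 (SE 0.0985, adjusted p = 0.0414). The Lox call was lost when any array other than vehicle 4 h replicate 4 was left out, with an adjusted p of up to 0.146. Loxl1, a paralogue best known in mice for its part in elastic fibre assembly, ran the other way. Its signal was 1595, 2334, 1971 and 2873 with NARA at 48 h, against 3686, 3705 and 5269 in vehicle at 48 h. The groups again did not overlap, and the log2 change was -0.94 (SE 0.218, adjusted p = 0.0447), a 1.92-fold lower signal. The Loxl1 call held without vehicle 4 h replicate 3 or NARA 48 h replicate 4 and was lost without any other 1 array, with an adjusted p of up to 0.129.

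**Figure D2:**
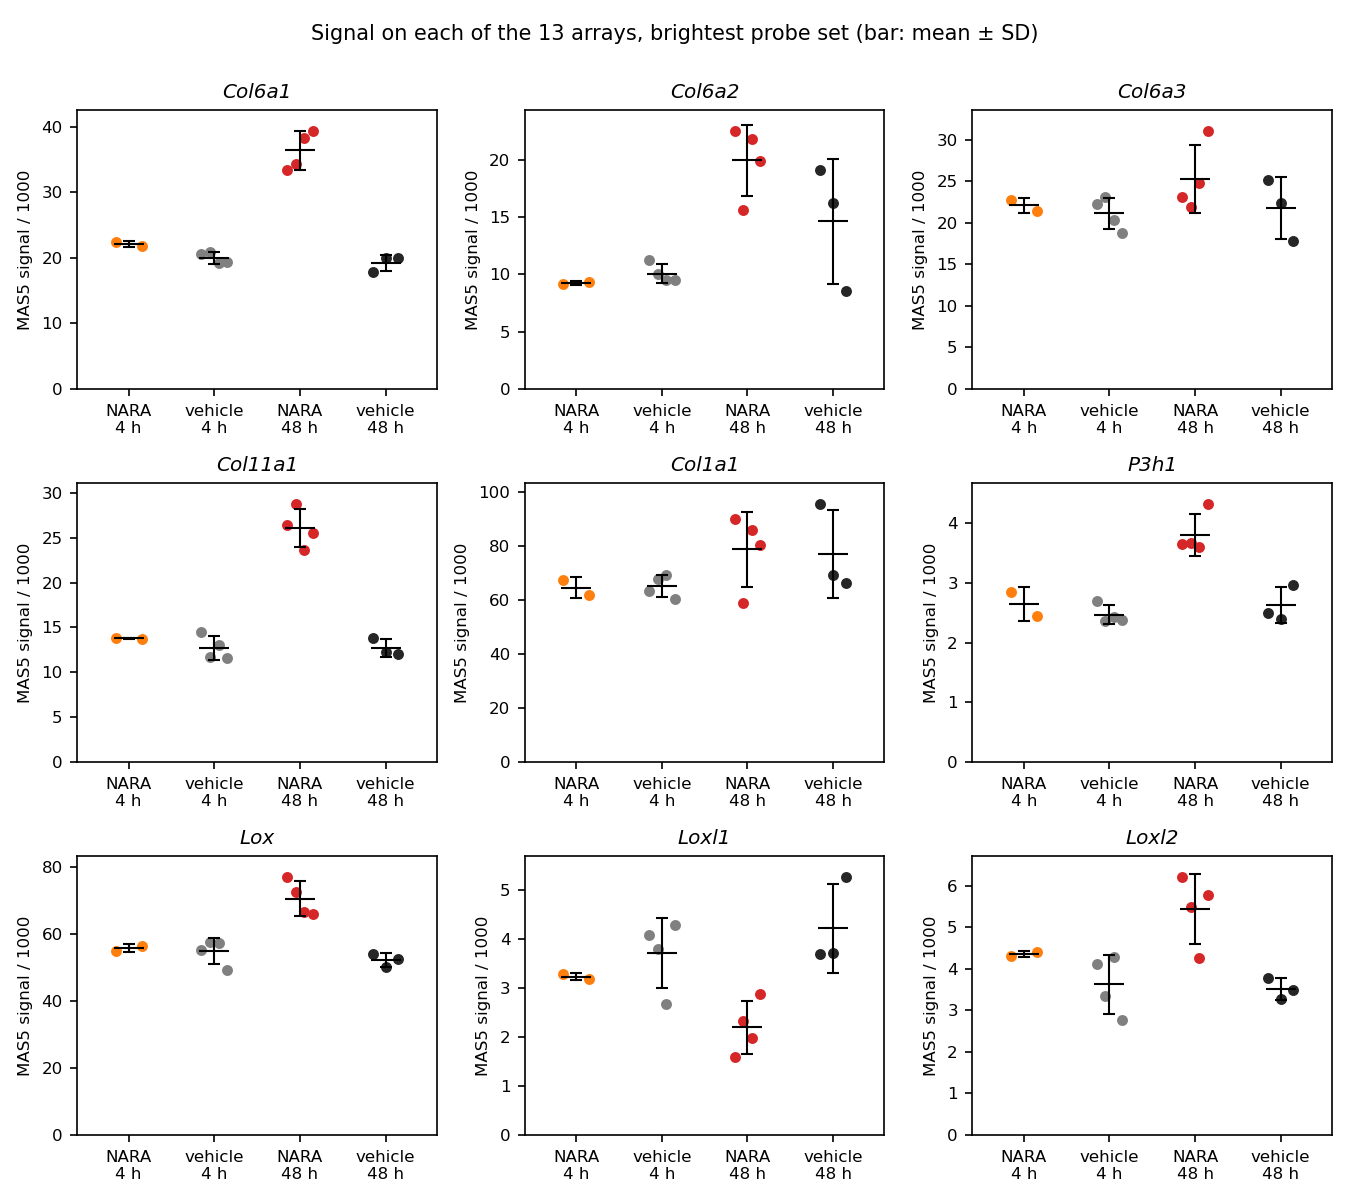
Each panel plots the MAS5 signal, divided by 1000, of one gene on each of the 13 arrays by group, with the mean ± SD as a bar. For Col6a1, Col11a1, P3h1, Lox and Loxl2 the NARA 48 h arrays lie above the vehicle 48 h arrays and for Loxl1 below them, whereas the arrays of Col6a2, Col6a3 and Col1a1 overlap.

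The promoter windows of 4 of these 5 genes are shown because their signals differed between the treatments at 48 h. Lox had no entry in the table used. Each window holds 300 bases, from 250 before to 50 after the RefSeq start, in build GRCr8, written 5′ to 3′ on the gene's strand. Capitals mark the motifs searched on both strands, which were the TATA box (letters TATAAA), the CCAAT box, the GC box (letters GGGCGG) and a half-site of the androgen response element (letters AGAACA). No motif overlapped another in these windows. The windows lie at chr20:11905440-11905739 (plus strand) for Col6a1, chr2:204508886-204509185 (plus strand) for Col11a1, chr5:138126990-138127289 (plus strand) for P3h1 and chr8:67612175-67612474 (minus strand) for Loxl1.
Col6a1: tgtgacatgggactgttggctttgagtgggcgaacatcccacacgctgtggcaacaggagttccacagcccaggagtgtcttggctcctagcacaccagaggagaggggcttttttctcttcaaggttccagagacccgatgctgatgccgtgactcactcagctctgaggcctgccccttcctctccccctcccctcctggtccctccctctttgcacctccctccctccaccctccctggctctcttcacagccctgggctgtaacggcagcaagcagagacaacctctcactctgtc
Col11a1: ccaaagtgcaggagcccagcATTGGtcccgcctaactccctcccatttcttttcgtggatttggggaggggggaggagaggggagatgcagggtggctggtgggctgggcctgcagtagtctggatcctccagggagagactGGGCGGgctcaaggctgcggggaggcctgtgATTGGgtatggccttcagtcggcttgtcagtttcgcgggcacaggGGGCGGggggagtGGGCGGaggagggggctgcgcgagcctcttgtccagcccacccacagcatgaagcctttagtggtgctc
P3h1: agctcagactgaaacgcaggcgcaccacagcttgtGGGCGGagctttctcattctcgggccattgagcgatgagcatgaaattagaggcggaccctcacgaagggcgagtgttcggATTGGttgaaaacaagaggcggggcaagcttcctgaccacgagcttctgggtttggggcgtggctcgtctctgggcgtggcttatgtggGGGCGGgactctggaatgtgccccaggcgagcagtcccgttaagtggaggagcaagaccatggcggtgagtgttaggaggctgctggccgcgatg
Loxl1: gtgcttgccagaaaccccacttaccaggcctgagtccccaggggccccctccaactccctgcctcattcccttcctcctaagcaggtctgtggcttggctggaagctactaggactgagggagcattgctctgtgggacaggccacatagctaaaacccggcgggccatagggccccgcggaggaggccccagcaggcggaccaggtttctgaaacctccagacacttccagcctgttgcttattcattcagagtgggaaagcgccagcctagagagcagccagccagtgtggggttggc
Col11a1 held 2 CCAAT boxes and 3 GC boxes, P3h1 held 1 CCAAT box and 2 GC boxes, and the windows of Col6a1 and Loxl1 held none of the 4 motifs. RefSeq windows were found for 27 of the 35 measured genes. The GC box was in 20 of these 27 windows (74.1%) and in 33.1% of all 33469 windows in the table. The CCAAT box was in 25.9% of the 27 and 37.5% of all windows, and the TATA box in 7.41% (Col1a2 and Crtap) and 14.2%. The half-site AGAACA was in 3.7% of the 27, which is Col5a1 alone, and in 20.7% of all windows. The windows of the whole table were not limited to genes measured here, so these shares set unlike sets of genes side by side. These matches describe the letters of the windows only.

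Among the 8 fibrillar collagens, which form the banded fibrils, Col11a1 was the only one called by its brightest probe set, and the median log2 change was 0.27, with 7 positive and 1 negative. Col3a1 had signals of 152532, 120653, 134932 and 130323 with NARA at 48 h, against 111591, 92617 and 104610 in vehicle at 48 h. Its arrays did not overlap, but the log2 change of 0.39 did not pass the test (adjusted p = 0.124). Col5a2, a regulatory chain of collagen V, had 118018, 112351, 107474 and 106830 with NARA and 92311, 84954 and 91937 in vehicle by its brightest probe set (log2 change 0.31, SE 0.0923, adjusted p = 0.112). By its second probe set the signal was 55319, 56374, 49973 and 56241 with NARA and 29815, 36156 and 39068 in vehicle. That probe set passed, with a log2 change of 0.64 (SE 0.108, adjusted p = 0.00783). Col3a1 and Col5a2 lie next to each other in the rat genome, with 0 protein-coding genes between them. Col1a2 was at 0.23 (adjusted p = 0.446) with arrays that did not overlap, and Col5a1 at 0.38 (adjusted p = 0.404) with arrays that did.

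Col1a1, the main chain of collagen I, did not separate. Its signal was 90299.5, 59015, 86113 and 80389.7 with NARA at 48 h, against 95818, 69178 and 66346 in vehicle at 48 h. The log2 change was 0.04 with a 95% interval of -0.33 to 0.40 (adjusted p = 0.95). Its second probe set gave 0.48 (SE 0.149, adjusted p = 0.123). Col5a3 and Col27a1, with log2 changes of 0.16 and -0.14, also had overlapping arrays.

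The 3 chains of type VI collagen all had positive log2 changes at 48 h, but only Col6a1 passed. Col6a2, which lies next to Col6a1 with 0 protein-coding genes between them, had signals of 22542, 15597, 21821 and 19874 with NARA and 19115, 16242 and 8557 in vehicle. The groups overlapped (log2 change 0.51, SE 0.234, adjusted p = 0.315). Vehicle 48 h replicate 4, at 8557, was the lowest of its group. The vehicle 4 h arrays were at 9480 to 11285 and the vehicle 48 h array set aside at 10256. The log2 change of Col6a2 was 0.17 without vehicle 48 h replicate 4 and 0.74 without vehicle 48 h replicate 2. The second probe set of Col6a2 gave 0.01 (adjusted p = 0.991). Col6a3 had 23121, 21898, 24747 and 31067 with NARA and 25183, 22380.1 and 17753 in vehicle (log2 change 0.21, adjusted p = 0.546). The difference between the chains was not tested.

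The basement membrane and network collagens, which form sheets rather than fibrils, had a median log2 change of -0.03 over 3 genes at 48 h. By limma 0 of the 3 passed, and 1 had an unadjusted p under 0.05. That gene was Col4a1, whose signal was 9428, 7501, 9876 and 8928 with NARA at 48 h, against 10873, 12368 and 10292 in vehicle at 48 h. All NARA arrays were lower, with a log2 change of -0.33 (SE 0.123, adjusted p = 0.212). Col4a2, its partner in the type IV network, was at -0.03 (adjusted p = 0.927), and Col8a1 at 0.27 (SE 0.198, adjusted p = 0.554). Col4a1 and Col4a2 are read in opposite directions from starts 77 bases apart, and their promoter windows share 176 bases.

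The FACIT and multiplexin collagens, which sit on fibril surfaces or near basement membranes, had a median log2 change of 0.36. By limma 0 of these 5 genes passed by the brightest probe set, although 4 had an unadjusted p under 0.05. Col18a1, the precursor of endostatin, had 7737, 7544, 9230.3 and 11771 with NARA at 48 h, against 7211, 5461 and 5100.5 in vehicle at 48 h. The groups did not overlap, with a log2 change of 0.60 (SE 0.176, adjusted p = 0.103). Its second probe set had 6874, 4398, 6459.7 and 8318 with NARA, against 5641, 5078 and 5262 in vehicle. These arrays overlapped, with a log2 change of 0.25 (adjusted p = 0.525). Col14a1, which binds fibrils through its interrupted helix, had the opposite sign. By its second probe set the signal was 1493, 1559, 1634 and 1411 with NARA, against 2167, 2163 and 1929.7 in vehicle. This probe set passed, at -0.44 (SE 0.102, adjusted p = 0.0447), and the brightest one gave -0.44 (SE 0.157, adjusted p = 0.188) with overlapping arrays. That call was lost when any array other than vehicle 4 h replicate 4 was left out, with an adjusted p of up to 0.151. Col12a1 and Col16a1, at 0.46 and 0.36, had adjusted p-values of 0.209 each, and Col15a1 was at 0.12 (adjusted p = 0.832).

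Of the 6 genes of prolyl hydroxylation, 5 had positive log2 changes (median 0.36) and P3h1 alone passed. P4ha2, a catalytic subunit of prolyl 4-hydroxylase, had 9212, 9382, 7896 and 9616 with NARA at 48 h, against 6587, 6974 and 6568 in vehicle at 48 h. The groups did not overlap, and the log2 change of 0.42 just missed the threshold (adjusted p = 0.0633). P4ha1 was at 0.30 (adjusted p = 0.408), and P4hb, the shared subunit also known as protein disulfide isomerase, at 0.09 (adjusted p = 0.705). P4ha3 was at -0.20 (adjusted p = 0.371). Crtap, the partner of P3h1, had a dim and scattered probe set, with 620.1, 404, 1001 and 377 for NARA and 135, 201 and 416 for vehicle. Its log2 change of 1.12 was numerically above those of Col11a1 and Col6a1 but had an SE of 0.494 (adjusted p = 0.291).

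The lysyl hydroxylases, which prepare lysines for glycosylation and cross-linking, had a median of 0.06, and by limma 0 of 3 passed, with 1 at an unadjusted p under 0.05. That gene was Plod3, with 11874, 13417, 11699 and 12185 for NARA at 48 h and 10506, 10172 and 10129 for vehicle at 48 h. Its groups did not overlap (log2 change 0.26, adjusted p = 0.185). Plod1 was at 0.06 (SE 0.118, adjusted p = 0.853) and Plod2 at -0.05, each with overlapping arrays. For the chaperone Serpinh1 and the proteinase pair of Bmp1 and its enhancer Pcolce, 0 of 3 passed by limma and 0 had an unadjusted p under 0.05. Serpinh1 was at 0.26 (adjusted p = 0.370) by a probe set whose suffix marks probes shared among transcripts, and at -0.27 by its other one. Pcolce was at 0.18 (adjusted p = 0.530) and Bmp1 at 0.05 (adjusted p = 0.922).

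All 4 measured lysyl oxidases had arrays that did not overlap between NARA and vehicle at 48 h, 3 of them higher and Loxl1 lower, where 16.7% of all genes had arrays that did not overlap. Loxl2 had 6221, 5486, 4255 and 5769 with NARA, against 3790.1, 3280 and 3487 in vehicle by its brightest probe set (log2 change 0.61, adjusted p = 0.0890). Its second probe set had 2911, 3573, 2672 and 2804 with NARA, against 1536, 1549 and 1585 in vehicle. That probe set passed, with a log2 change of 0.91 (SE 0.136, adjusted p = 0.00406). Loxl3 had 5758, 6486, 5520.2 and 5863 with NARA, against 4444, 5043 and 3726 in vehicle, a log2 change of 0.43 that did not pass (adjusted p = 0.130).

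Counted over all probe sets, 9 of the 51 were called at 48 h (17.6%), 7 higher and 2 lower, against 2.8% of all 20904 (1.36% higher and 1.44% lower). Of the 16 genes with a pair of measured probe sets, 12 had the same sign in both. Col6a3, Col15a1, Serpinh1 and Bmp1 had mixed signs. Col11a1 alone was called by both of its probe sets, while Col5a2, Loxl2 and Col14a1 were called by the dimmer one and Lox by the brighter one.

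**Figure D3:**
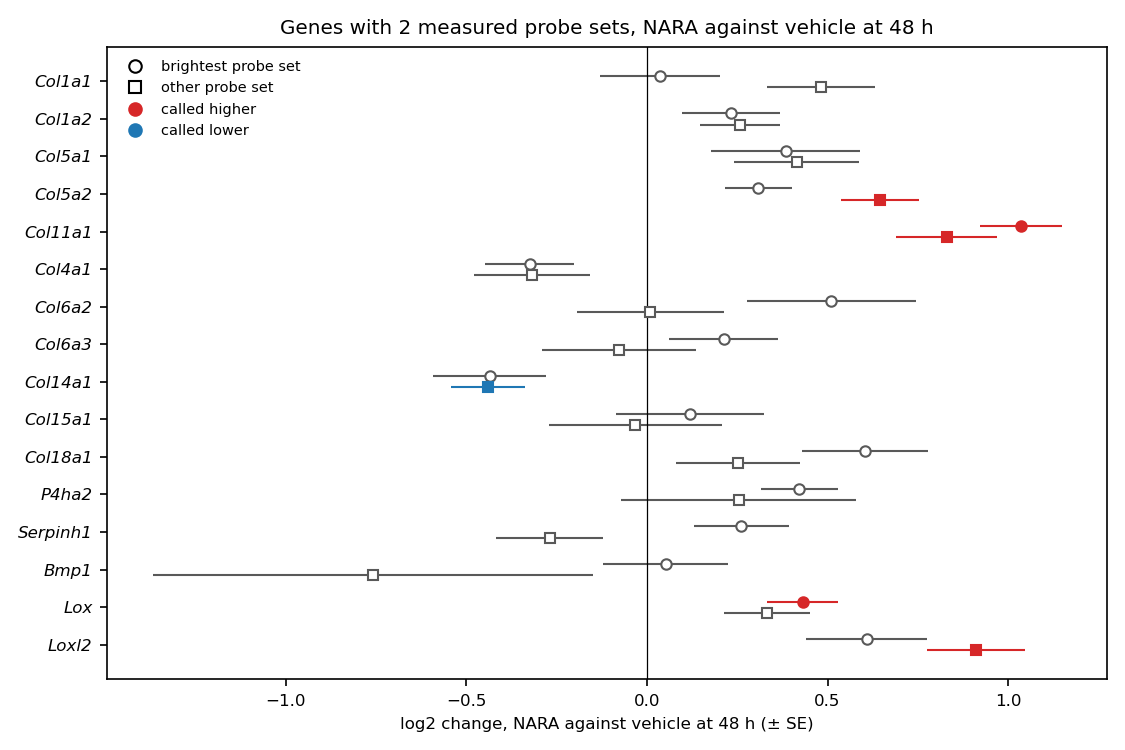
For the 16 genes with 2 measured probe sets, circles give the log2 change of the brightest and squares that of the other, NARA against vehicle at 48 h, with the SE as a bar. Both points are filled for Col11a1 only, at 1.04 and 0.83, and the points of Col6a3, Col15a1, Serpinh1 and Bmp1 fall on opposite sides of 0.

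After 4 h of NARA no collagen or processing gene was called. By limma 0 of 35 genes passed, as did 0% of all 11286 genes, and 0 of the 35 had an unadjusted p under 0.05, where 4.28% of all genes did. With 2 NARA arrays kept, the precision of this comparison is low. The log2 changes ran from -0.48 for Col15a1 to 0.28 for Loxl2, 18 positive and 17 negative, with a median of 0.03 beside -0.002 for all genes. Col6a1 had 22352 and 21716 with NARA at 4 h, against 20539, 20922, 19176 and 19299 in vehicle at 4 h. The arrays did not overlap, yet the log2 change was only 0.14, with a 95% interval of -0.10 to 0.38. Col11a1 had 13850.5 and 13732 with NARA at 4 h, against 14525, 11745, 13052 and 11586 in vehicle at 4 h (log2 change 0.12, interval -0.16 to 0.40). Lox was at 0.03, P3h1 at 0.10 and Loxl1 at -0.17, each with overlapping arrays. Arrays did not overlap for Col6a1 and Loxl2, which were higher, and for Col6a2 and Col14a1, which were lower, with log2 changes of -0.12 and -0.13. That is 4 of 35 genes, where 14.2% of all genes had arrays that did not overlap. The smallest unadjusted p, 0.0627, belonged to Col15a1, with 1293 and 1349 for NARA and 1348, 1922, 2174 and 2109 for vehicle.

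With its sign kept, the log2 change was higher at 48 h than at 4 h for 29 of the 35 genes. This count is not one of changes larger in size. The median difference was 0.27 beside -0.002 for all genes, but the test of the difference itself called 0 of the 35 by limma. Among all genes 0.151% were called. An unadjusted p under 0.05 was found for 7 of the 35 and for 9.18% of all genes. Col11a1 had the largest difference of log2 changes among those 7, 0.91 (SE 0.170, adjusted p = 0.0758), and Col6a1 followed in p with 0.78 (SE 0.147, adjusted p = 0.0784). Both lay just outside the threshold. Col18a1 differed by 0.81 (SE 0.265, adjusted p = 0.393), P4ha2 by 0.48 (SE 0.161, adjusted p = 0.405) and Lox by 0.40 (SE 0.149, adjusted p = 0.457). P3h1 differed by 0.43 (adjusted p = 0.499) and Loxl1 by -0.77 (adjusted p = 0.529).

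In vehicle alone, 48 h against 4 h, 0 of 35 genes passed by limma, as did 0% of all genes, and 3 had an unadjusted p under 0.05, where 7.87% of all genes did. These were Col4a2, Plod2 and P4ha3. Col4a2 had 4330.4, 4081 and 3530.4 at 48 h, against 3189.7, 2782, 3194 and 2956 at 4 h. The arrays did not overlap (log2 change 0.39, SE 0.112, adjusted p = 0.533). Plod2 was at 0.24 and P4ha3 at -0.23, and their arrays did not overlap either, so that 3 of the 35 genes were separated, where 9.57% of all genes were. The median over the 35 was 0.04, with 22 positive and 13 negative, beside 0.002 for all genes. Col11a1 and Col6a1 were at 0.00 and -0.06, with intervals of -0.25 to 0.25 and -0.27 to 0.16. This comparison and that of NARA at 48 h share the vehicle 48 h arrays.

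Other genes of the pathway were taken from lists of 78 further symbols, of which 45 were measured. These lists were chosen with earlier results of these data known. Their shares of calls and of positive changes are therefore not independent of the data. At 48 h 8 of these 45 were called, all higher with NARA (17.8%, where 3.21% of all genes were called), and the median log2 change was 0.21. Of 8 other collagens, Col4a5, a type IV chain distinct from Col4a1 and Col4a2, was called. Its signal was 10515, 10742, 10821 and 11052 with NARA at 48 h, against 5004, 5477 and 6729.8 in vehicle at 48 h. Its log2 change of 0.92 (SE 0.129, adjusted p = 0.00263) stood beside -0.33 for Col4a1. Among 12 helpers of procollagen in the ER, 11 were positive and 3 were called. Fkbp14, a prolyl isomerase, averaged 12278 ± 891 with NARA (SD, n = 4) and 7955 ± 292 in vehicle (SD, n = 3), a log2 change of 0.62 (SE 0.0891, adjusted p = 0.00294). P3h4 (SC65), a non-catalytic relative of P3h1, was at 0.62 (SE 0.121, adjusted p = 0.0181) by its brightest probe set, while its 4 others, at 0.25 to 0.58, did not pass. The isomerase Fkbp10 was at 0.52 (SE 0.123, adjusted p = 0.0482). Ppib, the cyclophilin B of the P3h1 complex, was at 0.37 (adjusted p = 0.0700).

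All 11 measured genes listed under procollagen export from the ER had positive log2 changes at 48 h, with a median of 0.31. The list also holds Creb3l1, which is not itself part of the export machinery. Of the 11 genes 3 were called, Creb3l1 among them, where 49.2% of all genes were positive and 3.21% were called. In vehicle at 48 h against 4 h, which shares the vehicle 48 h arrays, 9 of the 11 were negative, with a median of -0.10. Creb3l1 encodes a membrane-bound transcription factor that in mice activates collagen I genes in bone. Its signal was 4186, 5584, 5149 and 4265 with NARA, against 3561, 2519.9 and 2683 in vehicle (log2 change 0.71, SE 0.156, adjusted p = 0.0328). The COPII coat genes Sec24d and Sec13 were at 0.48 (SE 0.0907, adjusted p = 0.0165) and 0.56 (SE 0.131, adjusted p = 0.0459). Mia3 (TANGO1), which loads procollagen into carriers, was at 0.37 (adjusted p = 0.0601). Of 7 genes for making proline, serine and glycine, the serine-synthesis enzyme Psat1 was called, at 0.53 (SE 0.116, adjusted p = 0.0336). By limma 0 of 5 collagen receptors and uptake genes passed, with 0 at an unadjusted p under 0.05, and their log2 changes ran from -0.05 to 0.10. By limma 0 of 2 other proteinases passed, and Furin was at -0.50 (adjusted p = 0.107). Leaving out 1 array at a time left Col4a5 and Fkbp14 called each time. P3h4 and Sec24d lost the call without vehicle 48 h replicate 2 or 4, with adjusted p-values of up to 0.0746 and 0.0593. Creb3l1 lost it without either NARA 4 h array, vehicle 48 h replicate 3 or 4, or NARA 48 h replicate 2, 3 or 4 (up to 0.137). Psat1 lost it without vehicle 4 h replicate 4 and without every other array but vehicle 4 h replicates 1, 2 and 3 and NARA 48 h replicate 3 (up to 0.134). Sec13 kept it only without vehicle 4 h replicate 4 or NARA 48 h replicate 2 (up to 0.153 otherwise), and Fkbp10 only without vehicle 48 h replicate 2 (up to 0.127 otherwise).

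In the other comparisons 0 of the 45 further genes passed by limma. At 4 h 5 of the 45 had an unadjusted p under 0.05, where 4.28% of all genes did. In the difference between times 15 did, beside 9.18% of all genes, and in vehicle over time 5 did, beside 7.87%. At 4 h Col26a1 and Col2a1 were at -1.49 (SE 0.524, adjusted p = 0.893) and -1.24 (SE 0.45, adjusted p = 0.914), both with overlapping arrays, and Ddr2 at 0.26 (adjusted p = 1.00). In the difference between times Col4a5 was at 0.90 (adjusted p = 0.142), Creb3l1 at 0.94 (adjusted p = 0.223) and P3h4 at 0.72 (adjusted p = 0.225). The 5 in vehicle over time include Col6a5, which reached the minimum mean signal only through its vehicle 48 h arrays, so that its change is not given as a result. In that comparison Sec13 at -0.34 (adjusted p = 0.631) and Sar1a at -0.22 (adjusted p = 0.654).

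**Figure D4:**
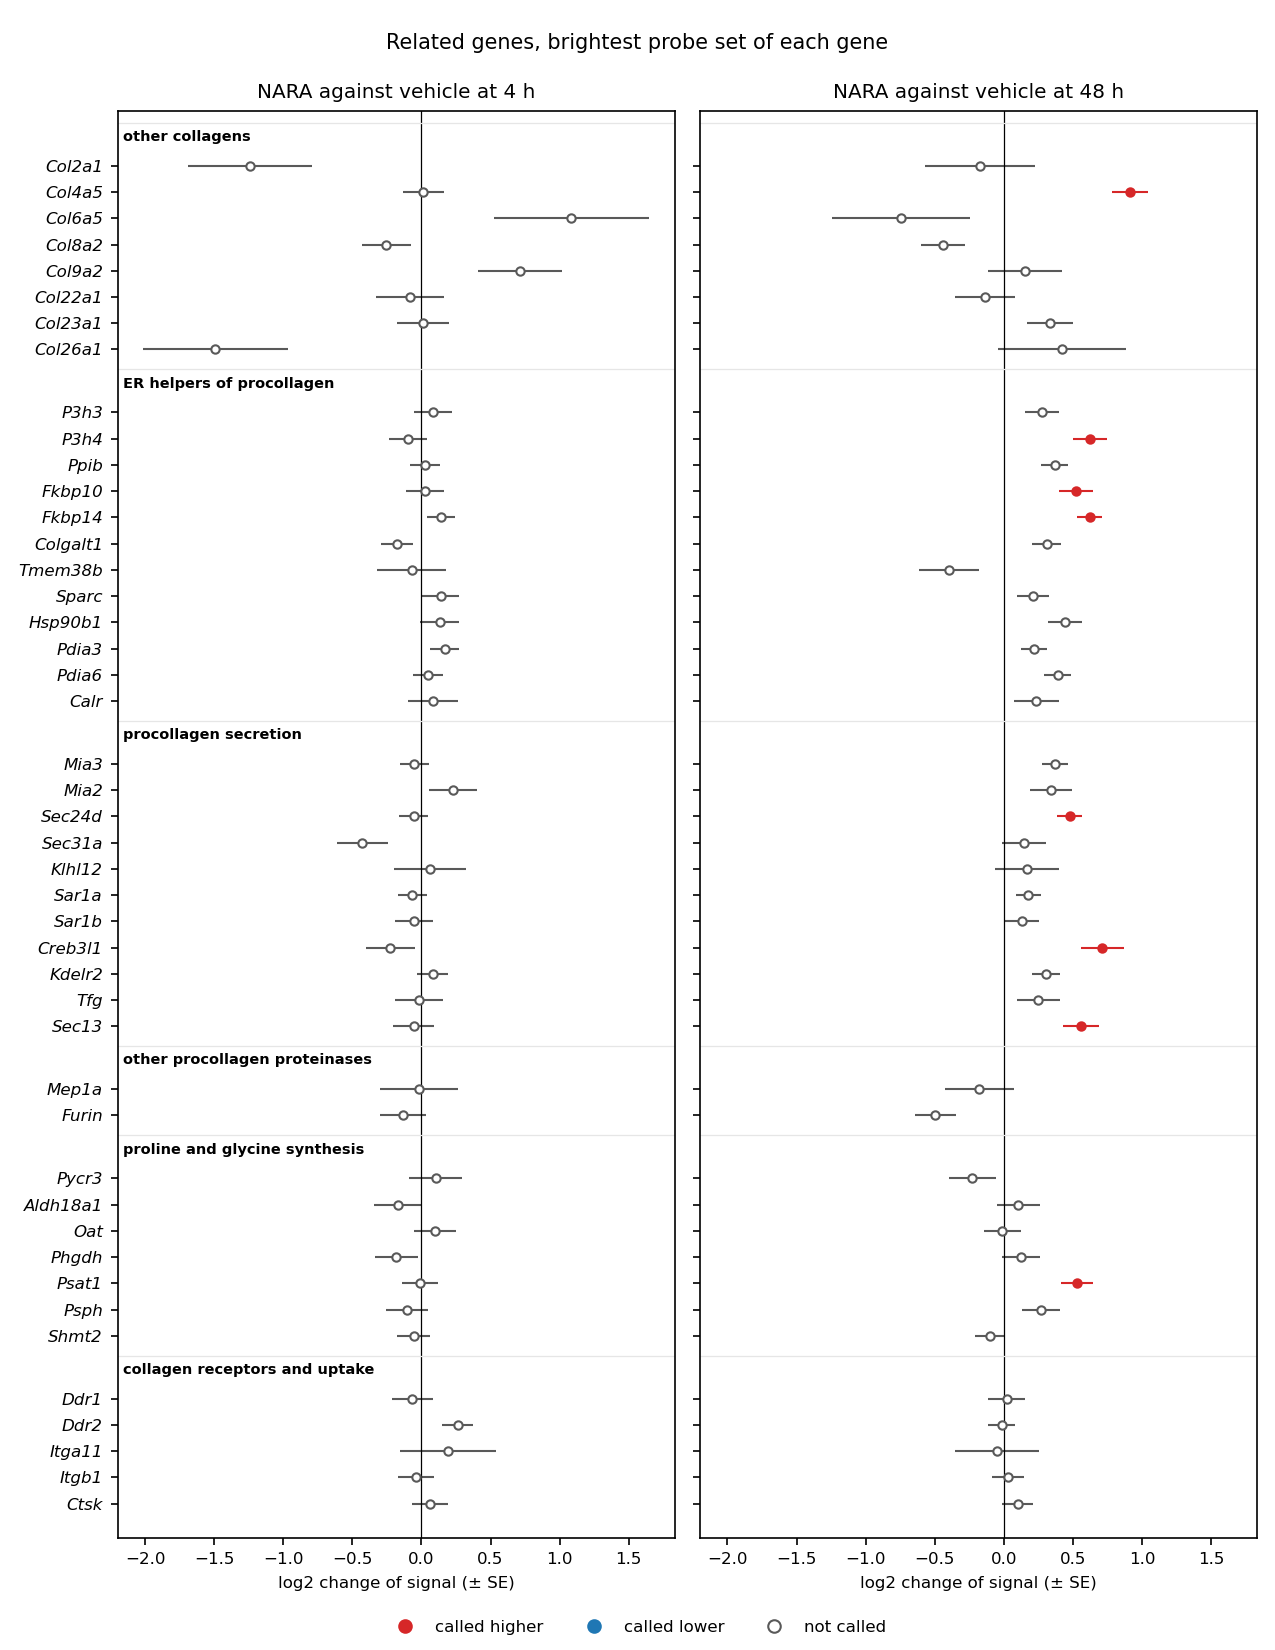
Each point is the log2 change of the brightest probe set of one of the 45 further genes of the pathway, NARA against vehicle, with its SE as a bar, at 4 h (left) and 48 h (right). At 48 h the 11 secretion genes all lie to the right of 0 and the 5 receptor and uptake genes lie close to it.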

How the data were processed

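RNA of LASCs was hybridised to 16 Affymetrix rat expression arrays. The deposited values are MAS5 signal intensities, which the authors scaled to a trimmed mean of 1500, per the series' design text, and the submitters' processing notes name MAS5. The authors excluded 3 arrays for low correlation and deviating principal components, per that text, which leaves 13. The labels describe Trizol extraction and the design text a column kit. Control probe sets were removed, and 20904 of 31042 others with a mean signal of at least 300 were tested as log2(signal + 50), so fold changes of dim genes are understated. Group means were fitted in limma 3.58.1 (R 4.3.3; lmFit, eBayes) with 9 residual degrees of freedom, and p-values were adjusted over all probe sets by Benjamini-Hochberg at 0.05. Numbers of arrays limit the precision. A gene stands by its brightest probe set, named by the platform annotation. Levels of different probe sets were not compared. The fit was tested on simulated data. The genes and lists were chosen with earlier results of these data known, and named were all those listed, with signals, SE and adjusted p for those that passed and at least the log2 change and adjusted p for the 2 of smallest p per class at 48 h, and of the further genes those that passed and up to 3 of smallest p per comparison. Alternatives covered the arrays used, the offset, the minimum signal, scaling, the prior, the probe set rule, the replicate block and leaving out each array. Promoter sequences are from RefSeq, build GRCr8.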

Additional observations from a re-analysis of the deposited data

Results flagged for a closer look

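In groups of 4 arrays, 1 array stood far from the other 3 in 5 of 70 gene and group tests, where chance flags about 5% of groups. Col1a2 was high on NARA 48 h replicate 1 (164181, the others 136775 to 140966), P3h1 on NARA 48 h replicate 4 (4332, the others 3598 to 3664) and Bmp1 on NARA 48 h replicate 3 (2189, the others 1722 to 1785). Col14a1 was high on vehicle 4 h replicate 1 (9237, the others 7757 to 7971), and Loxl3 was low on vehicle 4 h replicate 3 (3331, the others 4290.2 to 4471). Without NARA 48 h replicate 4 the log2 change of P3h1 at 48 h was 0.47 (adjusted p = 0.0798).

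The 2 arrays labelled NARA 4 h that the authors set aside enter no comparison. On both, 29 of the 35 genes were below every vehicle 4 h array, but 4 were above all of them. Col18a1 averaged 12437 on these 2 arrays, against 3964 to 5226 in vehicle at 4 h. P4hb averaged 65935, against 48448 to 49756. Bmp1 averaged 5133, against 1216 to 1833, and Crtap 566.8, against 127 to 479. The same arrays carry the high liver marker signals.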

How the results depend on the processing

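At 48 h 5 genes were called. The count was 0 with all 16 arrays, 2 with only the groups compared, 2 with no minimum signal, 2 with the replicate block, 3 with scaling to the same median, and 11 with either a minimum mean signal of 1000 or a trended and robust prior. The cause was not tested. The share of all probe sets called under each setting is not given here, for these genes or for the further genes below. A change of calls in these genes and one in all probe sets therefore cannot be told apart. The count was 5 to 7 with vehicle 48 h replicate 1 put back, with either other offset, with quantile normalization and with the mean of probe sets, and 2 to 4 when 1 array was left out. All 5 called genes kept their sign in all 25 alternatives, but in some of these that was fixed in advance. The 48 h log2 change cannot move with only the groups compared, another minimum signal, another prior or a 4 h array left out. For a gene with a single measured probe set the same holds for the mean of probe sets. Col6a1 and Col11a1 stayed called in 11 of 12 settings and in all 13 fits without 1 array, P3h1 in 7 and 6, Loxl1 in 7 and 2, and Lox in 6 and 1. In the difference between times, Col11a1 and Col6a1 were called, a count of 2 in place of 0, with vehicle 48 h replicate 1 put back, with the minimum of 1000 and with the trended and robust prior. At 4 h and in vehicle over time the count was 0 in every alternative. Of the further pathway genes 8 were called at 48 h. That count was 0 with all 16 arrays, 1 with only the groups compared (Col4a5), 2 with the replicate block and 2 with scaling to the same median (Col4a5 and Fkbp14 each time), 3 with no minimum signal (these and P3h4), 13 with either the minimum of 1000 or the trended and robust prior, and 3 to 6 when 1 array was left out. Creb3l1, Sec24d, Sec13, Fkbp10, Psat1 and P3h4 thus lost the call under the block. The deviations of same-numbered arrays of different groups correlated at -0.036 to 0.039 (median 0.011), against -0.052 to 0.050 (median -0.001) for other pairs. With 2 to 4 arrays in a group, these values cannot exclude a pairing by number. Under the replicate block Col11a1 and Col6a1 were the 2 of the 35 genes called. The fit of only the groups compared does not apply to the difference. With 2 arrays in the NARA 4 h group, small differences were not detectable there.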
